A study of Mus musculus with 8 samples.

Results

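The mevalonate pathway builds isoprenoids from acetyl-CoA, and 9 of its enzymes are described here in activated mouse B cells with and without a deletion of Eif4a1, which encodes the RNA helicase EIF4A1 of the translation initiation machinery. The genes are Hmgcs1, Mvk, Pmvk, Mvd, Idi1, Fdps, Ggps1, Fdft1 and Sqle, in pathway order, and they were picked by symbol among the 53242 genes of the deposited tables. All 9 had counts in every library and passed the filter on low counts, after which 14218 genes were tested.

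Splenic B cells came from C57BL/6 mice aged 8 to 12 weeks that were either Eif4a1 fl/fl Cd23-cre (4A1 KO) or Eif4a1 +/+ Cd23-cre (control), so both genotypes carried the Cre. Cd23-cre acts from the immature B cell stage in the spleen onwards, and the floxed allele loses only some exons of Eif4a1. Culture lasted 24 h, with IL4 (40 ng/ml) and irradiated CD40LB cells, a fibroblast feeder line that expresses CD40 ligand and human BAFF. The feeders were removed with magnetic beads before total RNA was sequenced. There were 4 libraries of each genotype, numbered 1 to 4. Libraries 1 and 3 were from males and 2 and 4 from females, and libraries 1 and 2 were batch A and 3 and 4 batch B. Tests use libraries 2 to 4 (n = 3 per genotype), because the study set aside replicate 1 of both genotypes for reduced viability, and values are shown for all 8.

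The pathway starts in the cytosol, where acetyl-CoA units are joined and reduced to mevalonate, which is phosphorylated and decarboxylated to a 5-carbon isoprenoid unit. These units are joined into farnesyl diphosphate, the point from which the branches to sterols, dolichol, ubiquinone and prenylated proteins part. In many cell types the genes of the sterol branch are controlled together by SREBP2, a transcription factor that is released from the endoplasmic reticulum membrane when its cholesterol is low. Dividing lymphocytes are known to raise this synthesis, as new membranes need sterols and small GTPases need prenyl anchors.

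Sequencing gave between 38488341 and 43210858 counts in the 6 libraries tested, 39890141 in control 1 and 31727557 in 4A1 KO 1. Eif4a1 itself was listed at 974, 933, 1142 and 1136 TPM (a transcript level scaled for gene length and depth) in control 1 to 4 and at 712, 700, 827 and 843 in 4A1 KO 1 to 4. The highest 4A1 KO library lay under the lowest control, and the mean fell by 26.3%. Exons outside the floxed part are still counted, so this level does not measure how many cells had lost the gene. B cell markers were high in all libraries, with a summed level of 8 markers between 5238 and 6049 TPM in control and between 5487 and 5571 TPM in 4A1 KO. Fcer2a, which encodes CD23, made up most of that sum and stood higher in 4A1 KO, at 2771 to 3439 TPM in control and 3561 to 3795 TPM in 4A1 KO, while the other 7 summed to between 2396 and 2613 TPM in control and between 1738 and 1949 TPM in 4A1 KO. Of the 8, 4 were called lower, among them Cd79b at 738 to 842 TPM in control and 361 to 466 TPM in 4A1 KO.

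Other cell types were scarce. The 13 fibroblast markers, for the feeder cells, summed to between 18.1 and 39.8 TPM in control and between 11.9 and 28.6 TPM in 4A1 KO, with Postn, Lum and Timp3 at 0 counts throughout and Thy1 making up much of the sum. T cell markers (7, also with Thy1) summed to between 12.95 and 40.7 TPM in control and between 10.1 and 26.8 TPM in 4A1 KO, with Cd3g at 0, and myeloid markers (7) to between 10.5 and 15.2 TPM in control and between 15.6 and 18.4 TPM in 4A1 KO, with S100a8 and S100a9 at 0. Of 7 fibroblast markers tested, 1 was called lower and 1 higher, and of 4 myeloid markers 0 lower and 1 higher. Of 2 T cell markers tested, 0 were called. Against 13.7% lower and 11.6% higher over all genes, these few calls are no result about these cell types. The part of these other cells in the results was not tested. In RNA from all the cells left after feeder removal, fewer cells of a type and less RNA per cell cannot be told apart.

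The members lie on chromosomes 3, 5, 8, 13, 14 and 15. The sequences just before the start of 4 of them are shown because they cover the first and the last enzyme of the 9 (Hmgcs1 and Sqle), the spacer that Mvk shares with its head-to-head neighbour Mmab, and the one member that was not called (Ggps1). They were read from GRCm39 and limited to bases in no annotated exon, and are written 5′ to 3′ on the strand of the gene. Capitals mark CACNCCAC, a core of the sterol regulatory element that SREBP proteins bind, or CCAAT, the box bound by the factor NF-Y, on either strand (ATTGG is CCAAT read on the other strand).

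Hmgcs1 (chr13:120151785-120151914, + strand): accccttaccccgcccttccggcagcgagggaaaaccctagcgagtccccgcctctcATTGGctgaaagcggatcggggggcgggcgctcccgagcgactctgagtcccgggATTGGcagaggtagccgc
Mvk (chr5:114582174-114582266, + strand): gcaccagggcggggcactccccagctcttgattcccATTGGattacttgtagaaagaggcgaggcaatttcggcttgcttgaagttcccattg
Sqle (chr15:59186582-59186868, + strand): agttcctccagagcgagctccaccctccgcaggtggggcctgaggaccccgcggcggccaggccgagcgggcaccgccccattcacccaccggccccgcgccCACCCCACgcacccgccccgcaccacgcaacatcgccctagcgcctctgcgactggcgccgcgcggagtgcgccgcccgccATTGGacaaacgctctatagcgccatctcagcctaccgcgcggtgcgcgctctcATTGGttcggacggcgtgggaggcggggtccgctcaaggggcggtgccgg
Ggps1 (chr13:14238075-14238188, - strand): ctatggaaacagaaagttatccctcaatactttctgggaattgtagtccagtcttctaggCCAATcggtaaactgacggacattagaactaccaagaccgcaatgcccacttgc

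Over the 300 bases before the annotated start of the canonical transcript, exons included, CACNCCAC was found on either strand in 2 of the 9 members, Hmgcs1 and Sqle, and in 6.44% of 21612 protein-coding promoters. The longer TCACNCCAC, which contains it, was found in Hmgcs1 alone, 224 bases before the start and outside the stretch printed, and in 1.25% of promoters. CCAAT was found in 7 of 9, all but Pmvk and Mvd, against 40.5% of promoters, and the GC box GGGCGG in 4 of 9 against 37.7%. In 11 enzymes of sterol synthesis after squalene, CCAAT was found in 8 and CACNCCAC in 0. CCAAT was also found in 4 of 10 genes of protein prenylation, 3 of 5 of dolichol synthesis and 4 of 11 for ubiquinone. The windows of Pmvk (chr3:89366125-89366424) and Fdps (chr3:89009336-89009635) lie inside the annotated spans of these genes, as their canonical transcripts start there. Ggps1 had 3 CCAAT matches in its window, and Pmvk and Mvd had none. A link between the motifs and the calls was not tested. These matches are descriptions of letters in a window, and annotated starts may differ from those used in B cells.

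Expression of 8 of the 9 enzymes was lower in 4A1 KO B cells, by 2.73-fold (Sqle) to 6.21-fold (Mvd), and only Ggps1 was not called at an adjusted p under 0.05 with an absolute log2 fold change above 0.5 (quasi-likelihood test of edgeR, Benjamini-Hochberg adjusted over all genes tested). Over all genes tested, 13.7% were called lower and 11.6% higher. The median log2 fold change of the 9 members was -1.63, against 0.007 over all genes. Summed over the 9, the level was between 1258 and 1424 TPM in control and between 328 and 461 TPM in 4A1 KO, and their share of all counts was between 0.122% and 0.144% in control and between 0.0344% and 0.0456% in 4A1 KO. With edgeR's glmTreat, which tests against the fold change itself, the same number of members, 8, was called lower, against 6.94% of all genes.

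**Figure D1:**
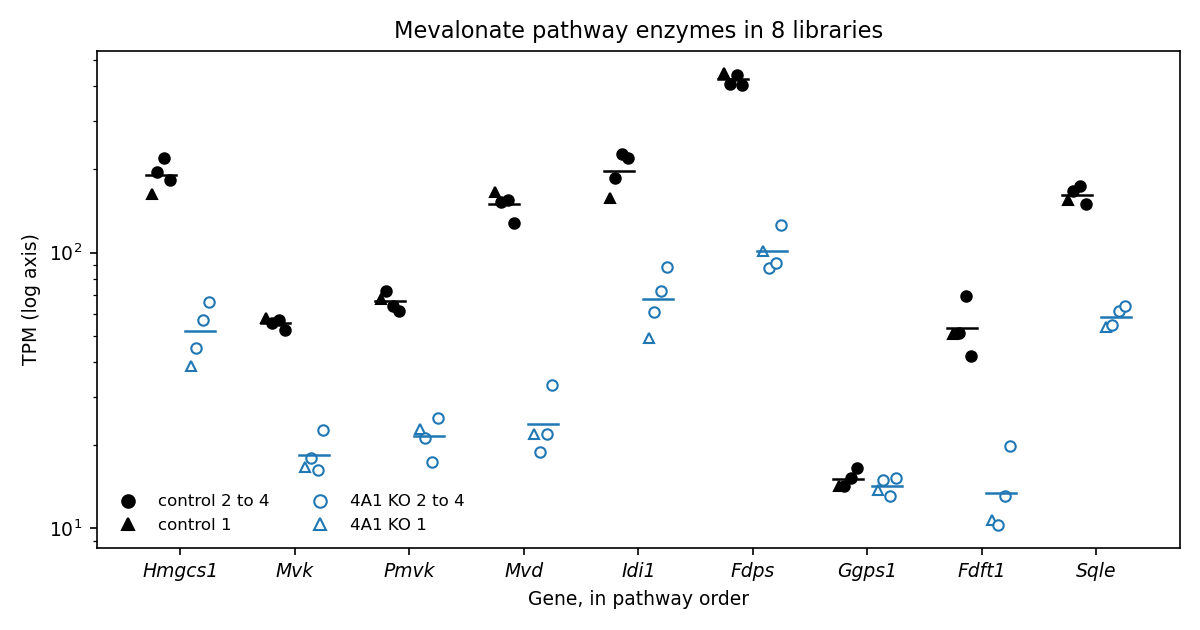
Level of each enzyme in TPM (y axis, log scale) in the 8 libraries, with genes in pathway order on the x axis. Filled black symbols are control and open blue symbols 4A1 KO, triangles are replicate 1, and each bar is the mean of 4 libraries; the genotypes are apart for every gene except Ggps1, where control lies between 14.2 and 16.5 TPM and 4A1 KO between 13.2 and 15.3 TPM.

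Hmgcs1 (ENSMUSG00000093930, chr13:120151915-120170470, + strand, 10 exons) encodes the cytosolic HMG-CoA synthase, which condenses acetyl-CoA with acetoacetyl-CoA. It was listed at 162, 197, 220 and 182.5 TPM in control 1 to 4 and at 38.6, 45.1, 56.9 and 66.4 TPM in 4A1 KO 1 to 4. The lowest control library was above the highest 4A1 KO library. The log2 fold change was -1.87 (SE 0.11, n = 3, adjusted p = 1.03e-05), that is 3.65-fold lower.

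Mvk, Pmvk and Mvd act in a row on mevalonate. Mvk (ENSMUSG00000041939, chr5:114582267-114601803, + strand, 11 exons), the mevalonate kinase, was listed at 58.0, 55.7, 56.9 and 52.2 TPM in control 1 to 4 and at 16.7, 18.0, 16.3 and 22.8 TPM in 4A1 KO 1 to 4. Its control levels lay within a narrow band, and every 4A1 KO library was far below it. The log2 fold change was -1.49 (SE 0.11, n = 3, adjusted p = 1.93e-05).

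Pmvk (ENSMUSG00000027952, chr3:89361758-89376323, + strand, 5 exons) encodes phosphomevalonate kinase, which adds the next phosphate. Its levels were 68.1, 72.5, 64.0 and 61.4 TPM in control 1 to 4 and 22.9, 21.2, 17.4 and 25.2 TPM in 4A1 KO 1 to 4, with no overlap. It fell by 1.63 on the log2 scale (SE 0.12, n = 3, adjusted p = 1.71e-05).

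Mvd (ENSMUSG00000006517, chr8:123160336-123170324, - strand, 10 exons) encodes diphosphomevalonate decarboxylase, which yields isopentenyl diphosphate, and its fall was the largest of the 9 in the main fit. Control 1 to 4 held 166, 153, 155 and 128 TPM, and 4A1 KO 1 to 4 held 21.9, 18.9, 22.0 and 33.1 TPM. Mvd therefore went from a level overlapping that of Sqle in control to one overlapping that of Pmvk in 4A1 KO. The log2 fold change of -2.63 (SE 0.19, n = 3, adjusted p = 1.71e-05) was the 41st lowest of the 14218 genes tested. With DESeq2 and normal shrinkage it was -1.68, less than the -1.95 of Fdps.

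Idi1 (ENSMUSG00000058258, chr13:8935537-8942487, + strand, 5 exons) encodes the isomerase that turns isopentenyl diphosphate into dimethylallyl diphosphate. Its levels were 158, 187, 228 and 220 TPM in control 1 to 4 and 49.1, 60.9, 72.3 and 88.9 TPM in 4A1 KO 1 to 4. In both genotypes batch B stood above batch A, and all 4 libraries of 4A1 KO were below all of control. The log2 fold change was -1.49 (SE 0.08, n = 3, adjusted p = 9.59e-06). Its paralog Idi2 had 3 to 7 counts in control and 0 to 1 in 4A1 KO, too few to compare.

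Fdps (ENSMUSG00000059743, chr3:89000888-89019213, - strand, 10 exons), the farnesyl diphosphate synthase, stands where the branches part and had the highest mean level of the 9 in both genotypes. It was listed at 446, 409, 441.5 and 404.5 TPM in control 1 to 4 and at 101, 88.1, 91.6 and 125 TPM in 4A1 KO 1 to 4. The spread of control was small beside the difference, and the fold change was 4.10-fold lower (log2 -2.04 in the fit on counts, SE 0.10, n = 3, adjusted p = 9.59e-06).

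Ggps1 (ENSMUSG00000021302, chr13:14224331-14238073, - strand, 4 exons) encodes geranylgeranyl diphosphate synthase, which extends farnesyl diphosphate for protein prenylation. It was listed at 14.2, 14.2, 15.3 and 16.5 TPM in control 1 to 4 and at 13.8, 15.0, 13.2 and 15.3 TPM in 4A1 KO 1 to 4, and the genotypes overlapped. The log2 fold change was -0.16 (SE 0.09, n = 3, adjusted p = 0.151), and 35.4% of genes had a lower one. In the same-numbered pairs its log2 ratio was -0.17, 0.01, -0.27 and -0.21. The ratios lie on both sides of 0, and a small fall cannot be told from none at this spread.

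Fdft1 (ENSMUSG00000021273, chr14:63382189-63417027, - strand, 8 exons) encodes squalene synthase, which commits farnesyl diphosphate to sterols. Control 1 to 4 were listed at 50.5, 51.0, 69.4 and 42.0 TPM and 4A1 KO 1 to 4 at 10.8, 10.3, 13.1 and 19.9 TPM. Control 3 stood above the other control libraries, and the 4A1 KO libraries were all lower than the lowest control. The log2 fold change was -2.04 (SE 0.16, n = 3, adjusted p = 2.29e-05).

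Sqle (ENSMUSG00000022351, chr15:59186869-59203043, + strand, 11 exons) encodes squalene epoxidase, which oxidises squalene and is the last of the 9. Its levels were 155, 167, 174 and 150.3 TPM in control 1 to 4 and 53.7, 54.6, 61.6 and 63.8 TPM in 4A1 KO 1 to 4. Its log2 fold change was -1.45 (SE 0.07, n = 3, adjusted p = 9.59e-06), within 1 SE of those of Mvk and Idi1.

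In TPM, an estimate the authors made with another tool, the call was the same. The difference on the log2(TPM + 1) scale was past an adjusted p of 0.05 for 8 of 9 members by limma, at 0.00386 for 7 of them and 0.00768 for Fdft1, and it was -0.08 with an adjusted p of 0.432 for Ggps1. By this test, without a fold minimum, 24.9% of genes were lower. For these 8 every 4A1 KO library also lay below every control library among all 8, which held for 19.7% of genes, and the exact permutation p was 0.029, the smallest that 4 against 4 can give. For Ggps1 the exact permutation p was 0.314.

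**Figure D2:**
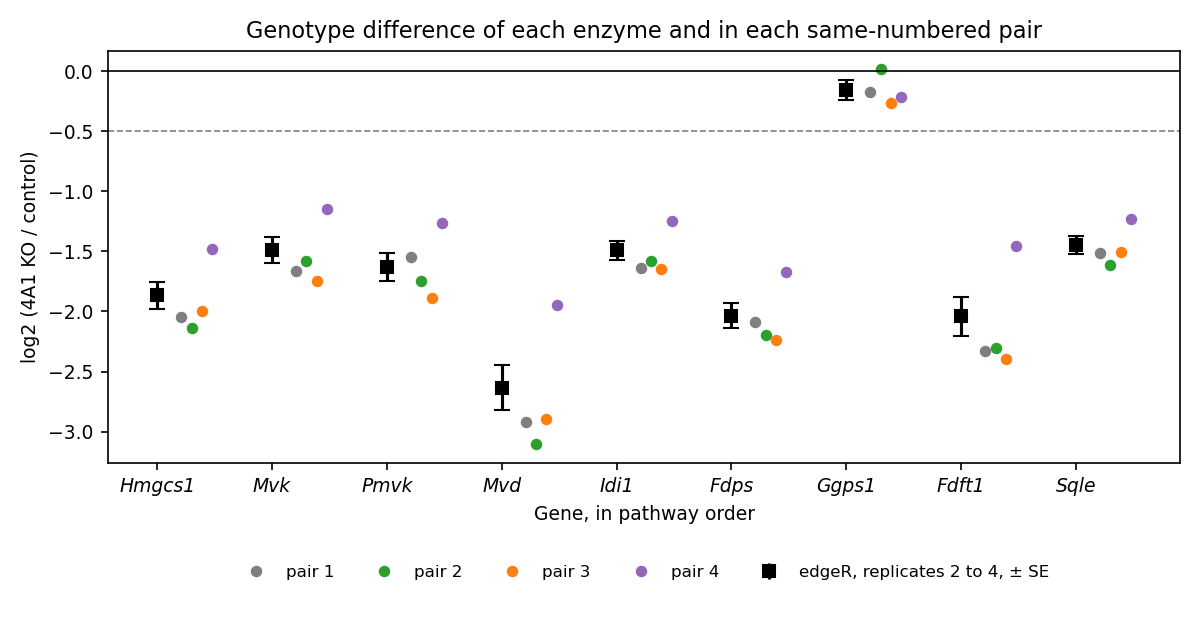
Genotype difference of each enzyme as log2 of 4A1 KO over control (y axis), with genes in pathway order on the x axis. Black squares are edgeR estimates from replicates 2 to 4 with SE bars and coloured points the log2 CPM ratio of each same-numbered pair; the dashed line marks -0.5, and pair 4 has the smallest fall in every member but Ggps1.

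Library 4A1 KO 4 had the highest level of the 4 4A1 KO libraries for 9 of 9 members, in both TPM and CPM (counts scaled to library size, not to gene length). Taken in pairs of the same number, and thus the same sex and batch, pair 4, the batch B females, had the smallest fall for 8 members, while for Ggps1 it was pair 2. Mvd, for example, had log2 ratios of -2.92, -3.10, -2.89 and -1.95 in pairs 1 to 4, and Fdft1 of -2.33, -2.30, -2.40 and -1.45. Eif4a1 itself had log2 ratios of -0.47, -0.43, -0.55 and -0.35, also with the smallest fall in pair 4, and Thy1 was highest in libraries 4 of both genotypes, at 36.4 TPM in control and 23.2 TPM in 4A1 KO. Their part in the smaller fall was not tested. Without replicate 4 the falls of these 8 members were larger, with log2 fold changes of -2.99 for Mvd and -2.35 for Fdft1, and the same 8 members were called.

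The genotype effect was compared between sexes and between batches over all 8 libraries with interaction terms in edgeR. Of the 9 members 0 passed an adjusted p of 0.05 for either, the adjusted p was 1.0 for sex and 0.999 for batch, and 0 members had an unadjusted p under 0.05. Over 14211 genes, 0 passed for sex and 1 for batch. The differences ranged from -0.50 (Fdft1) to -0.09 (Sqle) between sexes and from -0.16 (Ggps1) to 0.62 (Mvd) between batches, on the log2 scale. Their SEs were between 0.12 and 0.32, so equal effects in both sexes or both batches were not shown.

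The order of the levels, which TPM corrects for length, was compared among the members. In control it ran Fdps, Idi1, Hmgcs1, Sqle, Mvd, Pmvk, Mvk, Fdft1 and Ggps1, with mean levels of 425 ± 21.5 (SD, n = 4) TPM for Fdps and 15.1 ± 1.07 (SD, n = 4) TPM for Ggps1. Neighbours from Idi1 to Mvd overlapped in their ranges, as did Mvk and Fdft1, while no overlap was seen between Fdps and Idi1, Mvd and Pmvk, Pmvk and Mvk, or Fdft1 and Ggps1. In 4A1 KO the range of Fdps, 88.1 to 125 TPM, overlapped that of Idi1, 49.1 to 88.9 TPM. The 4A1 KO means ran from 101.5 ± 16.8 (SD, n = 4) TPM for Fdps to 13.5 ± 4.41 (SD, n = 4) TPM for Fdft1. The range of Fdft1 overlapped that of Ggps1 at 14.3 ± 0.995 (SD, n = 4) TPM. Ggps1, below all other members in control, was thus level with Fdft1 in 4A1 KO.

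Whether the members fell by equal amounts was examined with ratios between 2 members inside the same library, which do not depend on how libraries are scaled. Among 36 such ratios, 20 did not overlap between the genotypes over 8 libraries, each with an exact permutation p of 0.029, or 0.0514 when adjusted over the 36 ratios, so that the adjusted values miss 0.05 at the smallest p the design allows. All 8 ratios with Ggps1 were among them, and 12 of the 28 others. Of all ratios between 2 genes that averaged 1 TPM or more and were above 0 in every library, 35.6% did not overlap, so the count of 12 is near the background and is no result about the members. Mvd accounted for 7 of these 12. Its mean log2 ratio to Sqle went from -0.11 in control to -1.31 in 4A1 KO, and that to Fdps from -1.50 to -2.10.

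Reads of some members also match processed pseudogenes. Idi1-ps1 is identical to the Idi1 coding sequence over 681 bases and held 194, 263, 301 and 269 counts in control 1 to 4 and 30, 58, 77 and 96 in 4A1 KO 1 to 4. The pseudogenes of Idi1 made up between 2.42% and 4.35% of the counts of the family, but between 31.1% and 35.1% of its TPM, so the TPM of Idi1 depends on how Stringtie shared out the reads. With the pseudogenes included, the Idi1 family was between 237 and 345 TPM in control and between 71.2 and 132.5 TPM in 4A1 KO, still without overlap.

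For Fdps, Gm3571 (98.9% identity) and 3 further loci with counts brought between 9.14% and 11.2% of the family's counts, and for Fdft1, Gm6781 (97.4% identity) brought between 1.21% and 2.07%. Their own fitted log2 fold changes were -1.82 (SE 0.16) for Idi1-ps1, -2.06 (SE 0.12) for Gm3571 and -2.08 (SE 0.26) for Gm6781, beside -1.49, -2.04 and -2.04 for the genes, and that of Gm8163, a copy of Fdps with 0 to 14 counts, was -2.76 (SE 0.68). Reads of the genes and of these copies may be exchanged. Adding the copies changed the log2 ratio of mean CPM from -1.49 to -1.50 for Idi1 and from -2.028 to -2.033 for Fdps. Gm5630, a copy of Ggps1, held 0 to 1 counts. Washc5 (chr15:59202427-59246061) is not a copy but a neighbour that overlaps the end of Sqle at the same place, with 190 coding bases shared. It had a log2 fold change of -0.06 and was not called.

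The start of Mvk lies 94 bases from that of Mmab, which is transcribed the other way and encodes an adenosyltransferase of vitamin B12 metabolism. Mmab was listed at 19.8, 22.5, 19.1 and 18.8 TPM in control 1 to 4 and at 9.15, 10.1, 9.07 and 11.1 TPM in 4A1 KO 1 to 4, so it was lower in every 4A1 KO library. Its log2 fold change was -0.89 (SE 0.10, n = 3, adjusted p = 0.000113), against -1.49 for Mvk. The neighbour of Ggps1 in the same arrangement, Arid4b, starts 266 bases away and had a log2 fold change of 0.24 (SE 0.06, n = 3, adjusted p = 0.0114), under the fold minimum. Reads were counted by strand, so head-to-head genes are told apart.

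Genes that act before and after the 9 enzymes were counted from lists. Of 5 genes that supply acetyl-CoA units, 4 were called lower and 0 higher, against 13.7% and 11.6% of all genes tested. Acat2, the cytosolic thiolase that makes the acetoacetyl-CoA used by Hmgcs1, was listed at 78.6, 91.2, 103 and 78.0 TPM in control 1 to 4 and at 15.6, 17.8, 18.4 and 27.3 TPM in 4A1 KO 1 to 4 (log2 fold change -2.36, SE 0.18, n = 3, adjusted p = 2.07e-05). Acly, which cleaves citrate to cytosolic acetyl-CoA, and Slc25a1, which exports citrate from mitochondria, had smaller log2 fold changes of -0.75 and -0.64, and Acss2, which activates acetate, one of -1.28. Acat1, the mitochondrial thiolase, had a log2 fold change of -0.44 and was not called.

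Among 11 enzymes that turn the product of Sqle into cholesterol, 10 were called lower and 0 higher, again against 13.7% and 11.6% of all genes, with a median log2 fold change of -1.47 against 0.007. Lss, which closes the sterol rings, was at -2.02, Msmo1, a methylsterol oxidase, at -1.87, and Cyp51, a sterol demethylase, at -1.47. Tm7sf2 and Lbr, which both reduce the sterol ring at the same position, had the smallest falls in the fit on counts. Their log2 fold changes were -0.50 and -0.41, and Lbr was not called. In TPM of replicates 2 to 4 the place of Tm7sf2 differed, at 50.3% of control against 53.8% for Hsd17b7 and 75.7% for Lbr. Lbr is also a protein of the nuclear envelope.

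**Figure D3:**
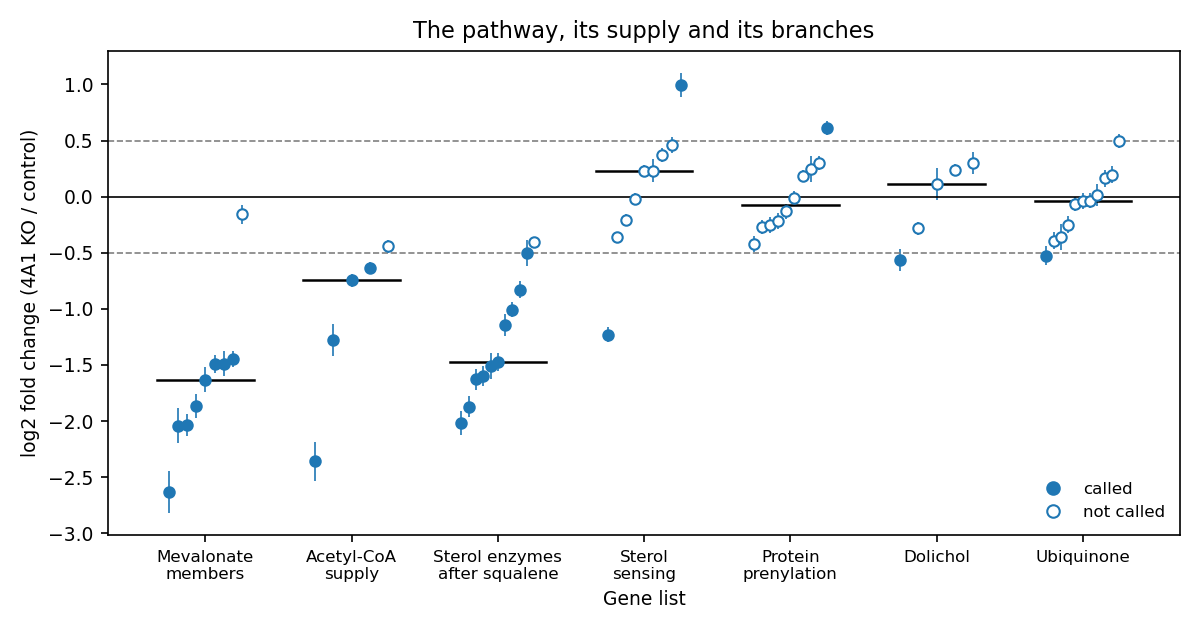
Log2 fold change of 4A1 KO over control (y axis) for each tested gene of 7 lists (x axis), from the fit on replicates 2 to 4 with SE bars. Filled points were called and open points were not, black bars are list medians, and dashed lines mark a log2 fold change of 0.5 in either direction; the medians are -1.63 for the members and -1.47 for the sterol enzymes after squalene, and between -0.07 and 0.23 for the 4 lists to the right.

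In the branches other than that to sterols the counts were read against the 13.7% of all genes called lower and the 11.6% called higher, and with 1 call in each list they are no result about these branches. Of 10 genes of protein prenylation, 0 were called lower and 1 higher, which was Rce1, the protease that trims prenylated proteins (log2 fold change 0.61, adjusted p = 5.92e-05), and the median was -0.07. Dolichol synthesis, with 5 genes, had 1 called lower, Dolpp1 at -0.57, and 0 higher. Of 11 genes for ubiquinone, 1 was called lower, Pdss2 at -0.53, and 0 higher. Without replicate 3, 0 genes of either list were called. Coq2, which attaches the isoprenoid tail to the ubiquinone ring, had a log2 fold change of 0.49, just under the minimum.

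Of 9 sterol-sensing genes tested, 1 was called lower and 1 higher, near the 13.7% and 11.6% of all genes, and the median log2 fold change was 0.23. Insig1, which retains the SREBP complex in the endoplasmic reticulum and is itself a gene that SREBP2 activates, was listed at 129, 126, 135.5 and 120 TPM in control 1 to 4 and at 59.2, 53.1, 54.6 and 59.7 TPM in 4A1 KO 1 to 4 (log2 fold change -1.23, SE 0.07, n = 3, adjusted p = 9.59e-06). Mylip, a ubiquitin ligase that lowers lipoprotein uptake and is activated by LXR, the sensor of excess sterol, was the gene called higher. Its log2 fold change was 1.00 (SE 0.11, n = 3, adjusted p = 9.56e-05 by edgeR). Mylip levels were low, at 3.47 to 7.40 TPM in control and 6.93 to 10.9 TPM in 4A1 KO, and the genotypes overlapped over all 8 libraries. Srebf2, which encodes SREBP2, was listed at 285 to 328 TPM in control and 221 to 244 TPM in 4A1 KO, with a log2 fold change of -0.36 that did not reach the fold minimum (adjusted p = 0.000188). These are mRNA levels, and the processing of SREBP2 was not measured.

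**Figure D4:**
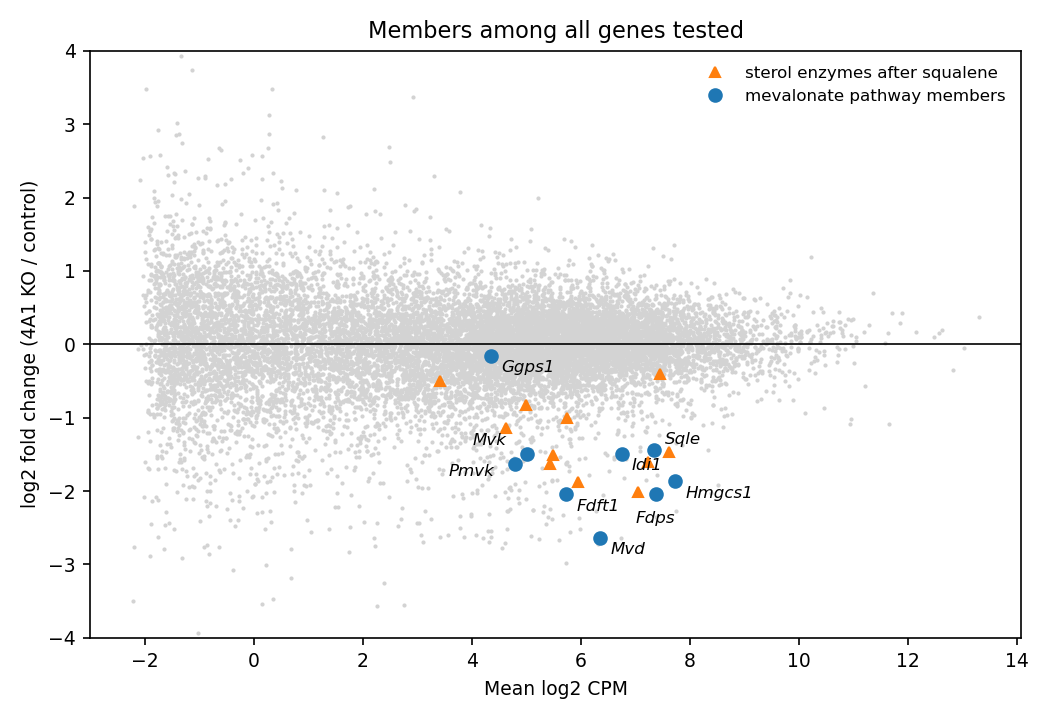
Log2 fold change of 4A1 KO over control (y axis) against mean log2 CPM (x axis) for the genes tested in replicates 2 to 4. Grey dots are all genes, blue circles the 9 members and orange triangles the 11 sterol enzymes after squalene; 12 genes lie beyond the axis limits of 4 in either direction, and 8 members lie between -1.45 and -2.63 while Ggps1 is at -0.16.

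The 8 called members lay low in the order of all genes tested by log2 fold change, and Ggps1, with 35.4% of genes below it, did not. In that order 0.281% of tested genes had a lower log2 fold change than Mvd, 0.957% than Fdft1 and 0.971% than Fdps, and 2.62% than Sqle. The 5 other genes, among those averaging 1 CPM or more, whose log2 CPM over the 8 libraries most resembled the mean of the members were Lss, Bcl2a1d, Dhcr7, Ebp and Eif3l, out of 11830. The likeness, Pearson's coefficient over 8 libraries, ran from 0.997 to 0.999, and from 0.914 to 0.963 after each genotype's mean had been subtracted. These libraries share genotype, depth and batch, so the values describe the pattern and carry no test. Lss, Dhcr7 and Ebp are sterol enzymes, Bcl2a1d is a survival gene of the BCL2 family with closely related copies, and Eif3l encodes a subunit of initiation factor EIF3, at 407 to 433 TPM in control and 284 to 340 TPM in 4A1 KO.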

How the data were processed

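Total RNA of 8 directional libraries was sequenced as paired reads. Per the labels and the study's methods, the authors trimmed reads with Trim Galore 0.6.6, mapped them to GRCm39 with HISAT2 2.1.0, counted them by strand over merged isoforms with Seqmonk and deposited raw counts. The authors also deposited TPM made with StringTie 2.1.1. How reads with several matches were counted is not given in the sources used here.

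Counts were filtered with filterByExpr, TMM-normalized and fitted with edgeR 4.0.16 in R 4.3.3 (quasi-likelihood, with batch, sex and genotype, replicates 2 to 4). P-values are two-sided and Benjamini-Hochberg adjusted over 14218 genes, and calls needed an adjusted p below 0.05 together with a log2 fold change beyond 0.5 in either direction. Log2(TPM + 1) was fitted with limma 3.58.1 over the 12976 genes that averaged 1 TPM or more, and exact permutation tests used all 8 libraries. The main edgeR fit and the limma fit were checked on simulated data that held no batch, sex or replicate effect. Batch and sex together equal the replicate number here, so the main fit holds the replicate block. The pairing comes from batch and sex in the labels, and same-numbered libraries deviated together (r of 0.639, 0.613 and 0.494 across genes, others -0.454 to -0.0746). Per the study's methods, replicates came from separate mice. With the replicate block, p-values of the main fit rest on how the genotype difference varied among the same-numbered pairs. They do not measure the spread between animals of 1 genotype.

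Coordinates, promoters (300 bases) and motifs came from GRCm39 and GENCODE M39, which matched 52647 of 53242 genes by identifier, and near-identical loci (at least 90% over 100 bases) from blastn 2.17.0. Genes named are the members, the genes of the pathway lists with the smallest adjusted p first, head-to-head genes within 1 kb, near-identical loci and the 5 genes most alike. Members and lists were chosen with earlier results of these data known. Cell type markers are named where they touch a result. Alternatives were DESeq2 1.42.0 and its size factors, upper-quartile scaling, other filters, a TPM pseudocount of 0.1, no block, all 8 libraries, glmTreat and leaving out each replicate. Some genes are not reported here.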

Additional observations from a re-analysis of the deposited data

Results flagged for a closer look

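In control, Fdft1 stood at 101.4 CPM in library 3 against 78.2 CPM in the nearest library and 75.8 CPM in the lowest, so that the gap was 0.906 of the whole range, above Dixon's critical value of 0.83 for 4 samples. Of 36 groups of 4 libraries examined 1 was past it, and chance gives 1.8. The same control libraries in TPM, at 50.5, 51.0, 69.4 and 42.0 TPM in control 1 to 4, were not past it. Without replicate 3 the log2 fold change of Fdft1 was -1.86, and it was called.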

How the results depend on the processing

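Over 180 recalculations for single members, the direction and the call remained in 180, and 8 members were called lower under each of the 13 alternatives on counts and 7 on TPM. DESeq2 with normal shrinkage gave smaller values by construction, of -1.68 for Mvd, -1.95 for Fdps and -1.46 for Fdft1, so that Mvd no longer had the largest fall. The median log2 fold change of all genes moved between 0.001 and 0.029. The number of genes called was 3596 and fell to 1627 with glmTreat, which tests against the fold minimum. Without one replicate it was 3083 to 3821. The counts called were 4 for acetyl-CoA supply under every replicate left out, 9 to 10 for the enzymes after squalene, 2 to 3 for sterol sensing, 1 to 2 for prenylation, 0 to 1 for dolichol and 0 to 2 for ubiquinone. Without replicate 3 dolichol and ubiquinone had 0, without replicate 4 ubiquinone had 2, and without replicate 2 prenylation had 2. The cause was not tested. Without the replicate block, 3000 genes and the same number of members, 8, were called, so the block changed no call of a member. Values near 0 counts, as for Idi2, are limited by depth.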
